A study of Mus musculus with 12 samples.

Results

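Long noncoding RNAs are transcripts that do not encode a protein, and 9 of them known from neural cells or from the nucleus were followed here: Malat1, Neat1, Miat, Sox2ot, Rmst, Pantr1, Dlx6os1, Gas5 and Snhg1. They were chosen by name but with earlier results of these data known, as were all gene lists below. All 9 were found in a table of 55401 gene identifiers. Of these 9, 8 passed a filter on low counts that left 16135 genes for testing, and Rmst did not. The table also holds 9911 genes annotated as long noncoding, of which 925 were tested.

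RNA was sequenced from primary cultures of CD1 mouse subventricular zone, the layer beside the lateral ventricles where neural stem cells persist, in 12 libraries, 4 per group. Postnatal oligodendrocyte precursor cells (OPC) were monolayers made by dissociating primary neurospheres from pups of postnatal day 0 to 2 and plating them for 2 days with FGF and PDGF-AA at 10 ng/mL each. Adult neural stem cells (NSC) were neurospheres from animals aged 2 months, and postnatal NSC were neurospheres from pups of postnatal day 0 to 2. Neurospheres, floating clusters of stem cells and their progeny, were fed FGF at 10 ng/mL, EGF at 20 ng/mL and heparin at 2 ug/mL over 6 to 7 days. All media were serum-free with 2% B27 supplement, and the labels name 4 independent litters as biological replicates. OPC therefore differ from postnatal NSC in growth factors, attachment and time in culture as well as in cell type.

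Totals per library were 17226501 to 23651396 counts in postnatal OPC, 16756231 to 20064043 counts in adult NSC and 38928989 to 54801726 in postnatal NSC. The OPC label was checked with 12 OPC markers, whose summed level was 10845 to 15832 CPM in postnatal OPC, 5179 to 5476 CPM in adult NSC and 6272 to 6578 CPM in postnatal NSC, and none of the 12 lacked counts in any library. Stem and radial glia markers (12) summed to 5993 to 9283 CPM in postnatal OPC and 8543 to 9349 CPM in postnatal NSC, which overlapped. They reached 9884 to 10519 CPM in adult NSC. Mature oligodendrocyte markers (8) summed to 263 to 557 CPM in postnatal OPC, 148 to 188 CPM in adult NSC and 337 to 1015 CPM in postnatal NSC. Levels are given as CPM, counts relative to the TMM-normalised library size. Libraries also differed within groups. Genes of DNA replication (16 genes, G1/S) summed to 539 CPM in postnatal OPC 2 and 706 CPM in postnatal NSC 3, against 1436 to 2358 CPM in the other 10. Y-linked genes were near 0 in adult NSC 1, postnatal NSC 2 and postnatal NSC 3, and 77.3 to 265 CPM in summed level elsewhere. The X-linked long noncoding RNA Xist was at 1154, 837 and 1341 CPM in those 3 libraries. It was also at 987 CPM in postnatal OPC 1 and 544 CPM in postnatal NSC 4, and at most 0.522 CPM in the rest. Postnatal OPC 1 and postnatal NSC 4 thus held both, and the mix of sexes differed between libraries. The Y-linked covariate used below takes no account of Xist.

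As background, Malat1 is retained in nuclear speckles, the stores of splicing factors, and Neat1 is the RNA on which paraspeckles assemble. Miat, also called Gomafu, forms nuclear foci of its own, Sox2ot, Pantr1 and Dlx6os1 lie beside transcription factor genes of neural development, and Rmst is a neural RNA reported to bind SOX2 in human cells. Gas5 and Snhg1 are host genes whose introns carry small nucleolar RNAs (snoRNAs), while their spliced exons are known to be degraded when translated.

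The 3′ ends of Malat1 and of the long form of Neat1 are shown because the libraries were made from polyadenylated RNA and these ends are known to be cut by RNase P rather than polyadenylated. In both, an A-rich tract encoded in the genome pairs with U-rich stretches upstream into a stabilising triplex. The stretches come from GENCODE M21 transcripts on GRCm38, minus strand, with the longest stretch from the end of Neat1-201 that recurs in Malat1-201 in capitals. Malat1-201 is shown from chr19:5795982-5796081 and Neat1-201 from chr19:5824708-5824807.
Malat1: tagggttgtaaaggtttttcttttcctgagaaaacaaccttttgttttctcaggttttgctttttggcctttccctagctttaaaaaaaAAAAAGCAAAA
Neat1: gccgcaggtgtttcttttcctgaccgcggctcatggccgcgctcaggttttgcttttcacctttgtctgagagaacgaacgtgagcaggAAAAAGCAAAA
In Malat1-201 (6983 bases) 292 annotated bases follow the tract, and in Neat1-201 (20771 bases) none do. The 11-base AAAAAGCAAAA, searched on the transcribed strand, occurred in the last 400 bases of a transcript in 20 of 9165 long noncoding genes with a transcript of that length (0.218%), Malat1 and Neat1 included. Malat1-201 had a run of 12 A, and the longest run in Neat1-201 was 7. Whether such ends were captured by their own A tract was not tested, and the counts do not separate the long from the short, polyadenylated form of Neat1 (Neat1-202, 3004 bases).

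Miat carries repeats of TACTAAC, the sequence of an intron's branch point, through which it is reported to bind the splicing factor SF1. The densest 3 are shown from Miat-205 (chr5:112216752-112216812, GRCm38, minus strand, GENCODE M21), with each repeat in capitals.
Miat: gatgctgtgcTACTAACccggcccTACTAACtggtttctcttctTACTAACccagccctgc
Miat-205 (9163 bases) held 6 such repeats on the transcribed strand. Of the longest transcripts of 10155 long noncoding genes, 2 held at least 6, and 2 held 3 within 41 bases (0.0197% each). Among 22 of these transcripts within 20% of the length of Miat-205, 1 held at least 6. Miat itself is counted in each of these, and it is the 1 of the 22.

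The starts of Gas5 and Snhg1 are shown because snoRNA host genes are known to begin, like ribosomal protein genes, with a C followed by pyrimidines (a terminal oligopyrimidine or TOP start). RefSeq start windows (GRCm38.p6) were matched by symbol for 5 of the 9 genes. Both are on the plus strand, with the unbroken pyrimidine run from the listed first base in capitals, and of 2 windows for Gas5 the one that begins with C is printed (chr1:161035136-161035215 for Gas5, chr19:8723457-8723536 for Snhg1).
Gas5: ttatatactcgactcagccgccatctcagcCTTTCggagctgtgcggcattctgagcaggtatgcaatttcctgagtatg
Snhg1: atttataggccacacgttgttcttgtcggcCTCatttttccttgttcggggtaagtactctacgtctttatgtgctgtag
The run was 5 bases in Gas5 and 3 in Snhg1. Of 32851 RefSeq windows, 2.51% began with C and a run of at least 5 pyrimidines, and 5.81% with C and a run of at least 3. As the Gas5 window was chosen for its first C, these shares are no test of its start. The Snhg1 run broke off at an A after only 3 bases, so its listed start does not show a long pyrimidine tract.

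Malat1 had the highest mean of the 9 per kilobase of all annotated exon bases in all 3 groups. Between genes, levels are compared as CPM per kilobase of all annotated exon bases, which understates genes with many short isoforms such as Sox2ot and Gas5. Gas5 was divided by 3760 bases, while its transcript Gas5-201 has 530. The place of Malat1 above Gas5 therefore depends on the length used, and other lengths were not tried. In postnatal OPC the means were 33.5 for Malat1, 29.1 for Gas5, 22.4 for Pantr1, 11.6 for Miat, 9.56 for Snhg1, 6.13 for Sox2ot, 0.53 for Neat1 and 0.095 for Dlx6os1. In this order the libraries of Malat1 overlapped those of Gas5, and those of Miat overlapped both Pantr1 and Snhg1.

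In adult NSC Malat1 averaged 77.6 CPM per kilobase, followed by Gas5 at 26.0, Snhg1 at 12.8, Pantr1 at 12.5, Sox2ot at 7.35, Neat1 at 0.873, Miat at 0.387 and Dlx6os1 at 0.0463. Only Snhg1 and Pantr1 overlapped among these neighbours in the order. In postnatal NSC the order was Malat1 at 103.6 CPM per kilobase, Gas5 at 32.0, Miat at 20.1, Pantr1 at 12.5, Snhg1 at 11.2, Neat1 at 7.27, Sox2ot at 4.15 and Dlx6os1 at 0.395, and every neighbouring pair from Malat1 down to Sox2ot overlapped. Among the 925 tested long noncoding genes Malat1 ranked 7 by mean CPM per kilobase in postnatal OPC, 5 in adult NSC and 2 in postnatal NSC. All 9 genes together held 7.91% to 10.4% of the long noncoding counts of a library in postnatal OPC, 8.04% to 14.5% in adult NSC, and in postnatal NSC 11.4% to 19.4%.

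**Figure D1:**
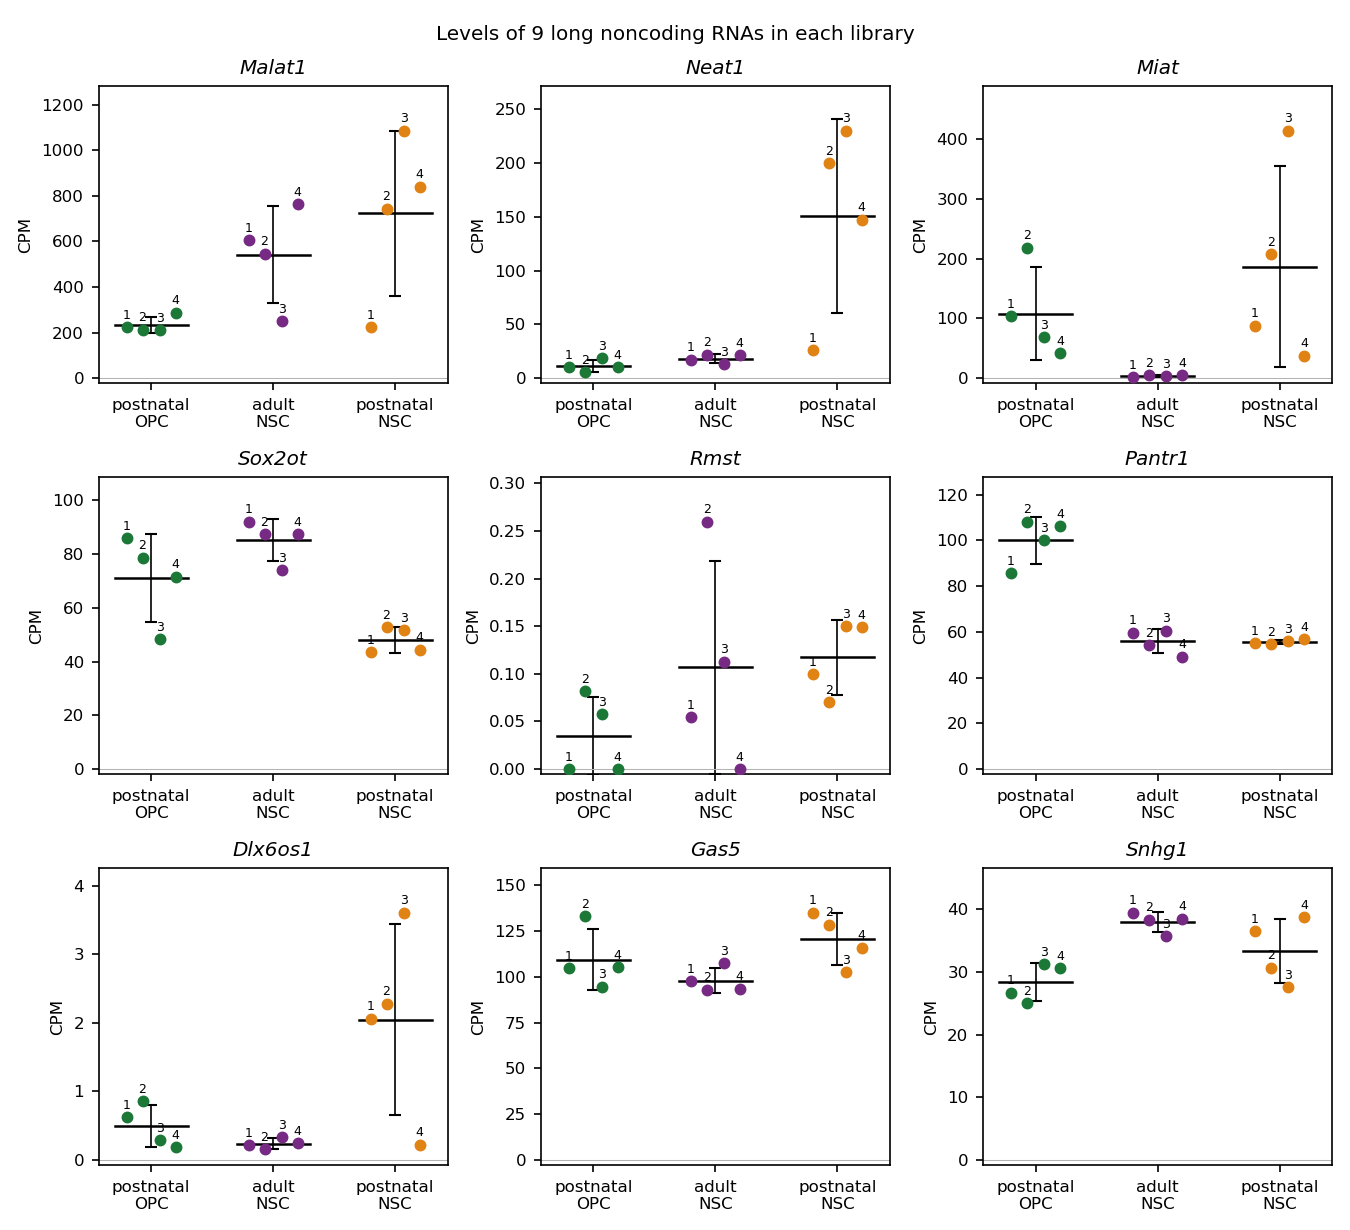
Each point is a library (number: replicate) and the y axis is CPM, with the mean (horizontal line) and SD (vertical bar, cut at 0) of the 4 libraries of each group. Miat lies at 1.80 to 4.99 CPM in adult NSC against 37.6 to 415 CPM in postnatal NSC, and Pantr1 at 85.6 to 108 CPM in postnatal OPC against 54.6 to 56.7 CPM in postnatal NSC.

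The first comparison set OPC monolayers against postnatal neurospheres, the kind of culture from which OPC were made. Whether both groups came from the same litters is not given. Of the 8 tested RNAs, 2 were higher in OPC (Sox2ot and Pantr1), 3 were lower (Malat1, Neat1 and Dlx6os1) and 3 did not pass, in edgeR's quasi-likelihood (QL) test with Benjamini-Hochberg adjustment over all genes at 0.05. Of all genes tested 22.4% were higher and 22.7% lower (45.1% in either direction), and of long noncoding genes 18.2% and 10.9% (29.1%). The median log2 fold change was -0.51 over the 8, 0.10 over long noncoding genes and -0.01 over all genes.

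The second set neurospheres of adult origin against those of postnatal origin. Here 1 of the 8 was higher in adult NSC (Sox2ot), 4 were lower (Neat1, Miat, Dlx6os1 and Gas5) and 3 did not pass, where 25.2% of all genes were higher and 27.9% lower (53.1%). Long noncoding genes were lower in adult NSC in 33.3% of cases and higher in 10.5% (43.8%), with a median log2 fold change of -0.42, against -0.36 over the 8 and -0.03 over all genes.

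OPC were also compared with adult NSC, which differ from them in age and culture together. Of the 8, 2 were higher in OPC (Miat and Pantr1), 2 lower (Malat1 and Snhg1) and 4 did not pass, where 26.3% of all genes were higher and 24.7% lower (51% in either direction). Among long noncoding genes the shares were 38.7% and 12.6% (51.4%), with a median of 0.60, against -0.05 over the 8 and 0.01 over all genes. The 3 comparisons share libraries in pairs and are not independent. In bulk RNA, fewer cells of a type and less RNA per cell cannot be told apart.

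**Figure D2:**
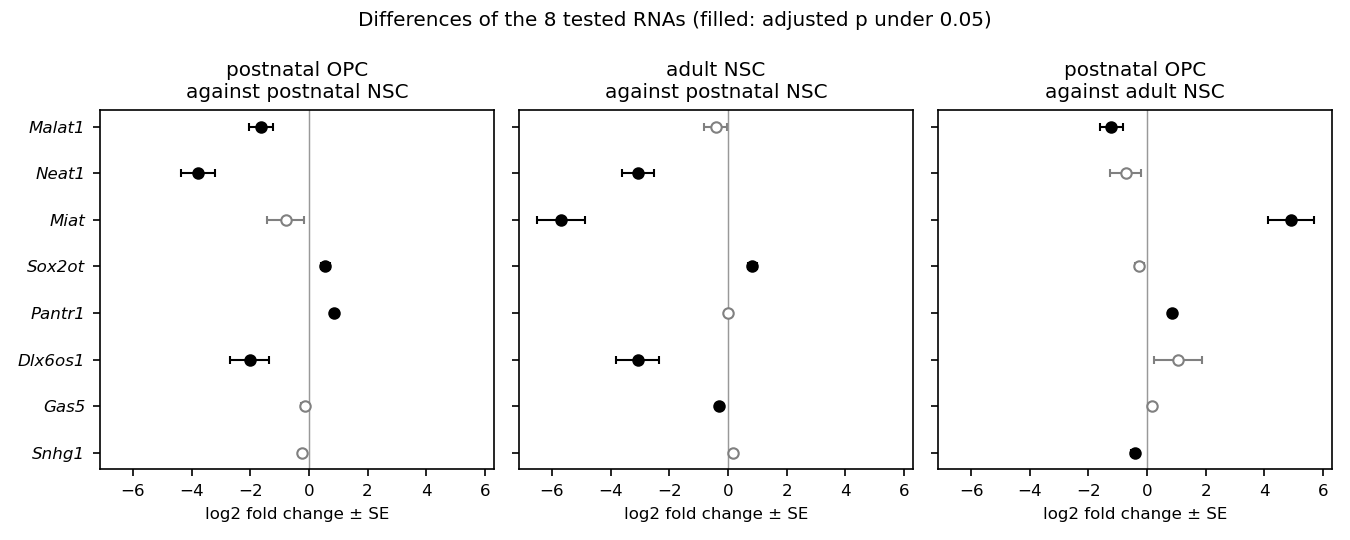
Points are log2 fold changes of the 8 tested RNAs with their SE (x axis), in 1 panel per comparison, and filled points passed the test. Neat1 is filled at -3.79 and -3.06 in the comparisons against postnatal NSC and open at -0.73 in OPC against adult NSC.

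Malat1 was measured at 224, 213, 210 and 288 CPM in postnatal OPC 1 to 4, at 607, 547, 251 and 764 CPM in adult NSC 1 to 4, and at 224, 743, 1087 and 840 CPM in postnatal NSC 1 to 4. OPC libraries lay close together, and 3 of 4 libraries in each NSC group stood above all of them, while adult NSC 3 and postnatal NSC 1 lay in the OPC range. Malat1 fell by 1.63 ± 0.41 (log2, SE) in OPC against postnatal NSC (edgeR QL adjusted p = 0.00645), a 3.10-fold difference. With the level of Y-linked genes as a covariate it was -1.22 ± 0.46 (edgeR QL adjusted p = 0.0565) and no longer passed.

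Against adult NSC, Malat1 was lower in OPC by a log2 fold change of -1.21 ± 0.41 (edgeR QL adjusted p = 0.0247). That call did not hold when postnatal OPC 1, 2 or 3, or adult NSC 1 or 4, was left out, with values of -1.19, -1.16, -1.17, -1.16 and -1.01. Adult and postnatal NSC did not differ past the threshold (-0.42 ± 0.40, edgeR QL adjusted p = 0.397), although without postnatal NSC 1 the value was -0.75 ± 0.29 (adjusted p = 0.0469 in the same test). Tgfb1i1, Auh and Sfxn2 had the patterns most like Malat1 over the 12 libraries (Pearson r of log2 CPM 0.884, 0.872 and 0.855, of 10570 genes compared). These libraries share group differences and depth, so that r is only a description.

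Proteins of nuclear speckles, where Malat1 resides, were followed through 23 genes of SR proteins and their partners. In OPC against postnatal NSC 7 were higher, 1 lower and 15 did not pass, with a median log2 fold change of 0.06. Srsf1, a splicing factor of the SR family, rose by 0.93 ± 0.12 (493 CPM in OPC against 260 CPM; edgeR QL adjusted p = 7.23e-05), and the large speckle scaffold gene Srrm2 fell by 0.45 ± 0.09. In adult against postnatal NSC 7 were higher and 5 lower (median 0.03), among them Srsf1 (1.06 ± 0.12) and the splicing kinase gene Clk1 (-0.71 ± 0.18). In OPC against adult NSC 4 were higher and 2 lower (median -0.04). In this order of comparisons 34.8%, 52.2% and 26.1% of the list were called, against 45.1%, 53.1% and 51% of all genes. Whether this list or any list below differed from all genes was not tested.

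Neat1 was far more abundant in postnatal NSC than in either other group. It was at 10.1, 5.50, 18.3 and 10.1 CPM in postnatal OPC 1 to 4, at 17.1, 21.7, 12.7 and 21.03 CPM in adult NSC 1 to 4, and at 26.2, 199.8, 230.3 and 147 CPM in postnatal NSC 1 to 4. All 4 postnatal NSC libraries stood above all 8 others, although postnatal NSC 1 was only slightly above them. Groups failed to overlap in this way in 34.9% of all genes in OPC against postnatal NSC and in 53.2% in adult against postnatal NSC.

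The fall of Neat1 was 13.8-fold in OPC (log2 fold change -3.79 ± 0.57, edgeR QL adjusted p = 0.00024) and 8.32-fold in adult NSC (-3.06 ± 0.55, edgeR QL adjusted p = 0.000737). OPC and adult NSC did not differ past the threshold (-0.73 ± 0.53, edgeR QL adjusted p = 0.272). With Y-linked genes as a covariate the value in OPC was -3.16 ± 0.61 and still passed (adjusted p = 0.00227 in the same test). The count ratio of Malat1 to Neat1 was 11.5 to 38.7 in postnatal OPC and 19.8 to 36.3 in adult NSC, against 3.72 to 8.57 in postnatal NSC.

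Immediate early genes, which cells switch on within minutes of a stimulus or of handling, moved with Neat1 in both comparisons against postnatal NSC. In OPC against adult NSC 5 of the 10 were lower and none higher (median log2 fold change -1.55), while Neat1 did not pass. Of the 10 on the list, 9 were lower in OPC and all 10 lower in adult NSC, each against postnatal NSC, and the median log2 fold changes were -5.56 and -4.20. Their summed level was 304 to 350 CPM in postnatal OPC, 619 to 704 CPM in adult NSC and 4431 to 12574 CPM in postnatal NSC, and none lacked counts in any library. Postnatal NSC 1, lowest of its group for Neat1, was also lowest for this list, and postnatal NSC 3 was highest for both. Neat1 in postnatal NSC 1 (26.2 CPM) was close to adult NSC (12.7 to 21.7 CPM), although its list sum of 4431 CPM lay far above theirs. Of all genes, 22.7% were lower in OPC and 27.9% in adult NSC, each against postnatal NSC, and 24.7% in OPC against adult NSC. The part of immediate early genes in the result was not tested.

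The 3 genes most like Neat1 were Ptms (r = 0.965), Zfp36, an mRNA decay factor gene that is on the immediate early list (r = 0.964), and Dusp1, a phosphatase gene of the MAP kinase pathway (r = 0.951). After the group means were taken off, r was 0.844, 0.869 and 0.865. Malat1 and Neat1 themselves correlated at 0.78 over the 12 libraries and at 0.80 after the group means were taken off. Their loci lie next to each other on chromosome 19, with Malat1 at 5795690 to 5802672 and Neat1 at 5824708 to 5845478 on the minus strand.

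**Figure D3:**
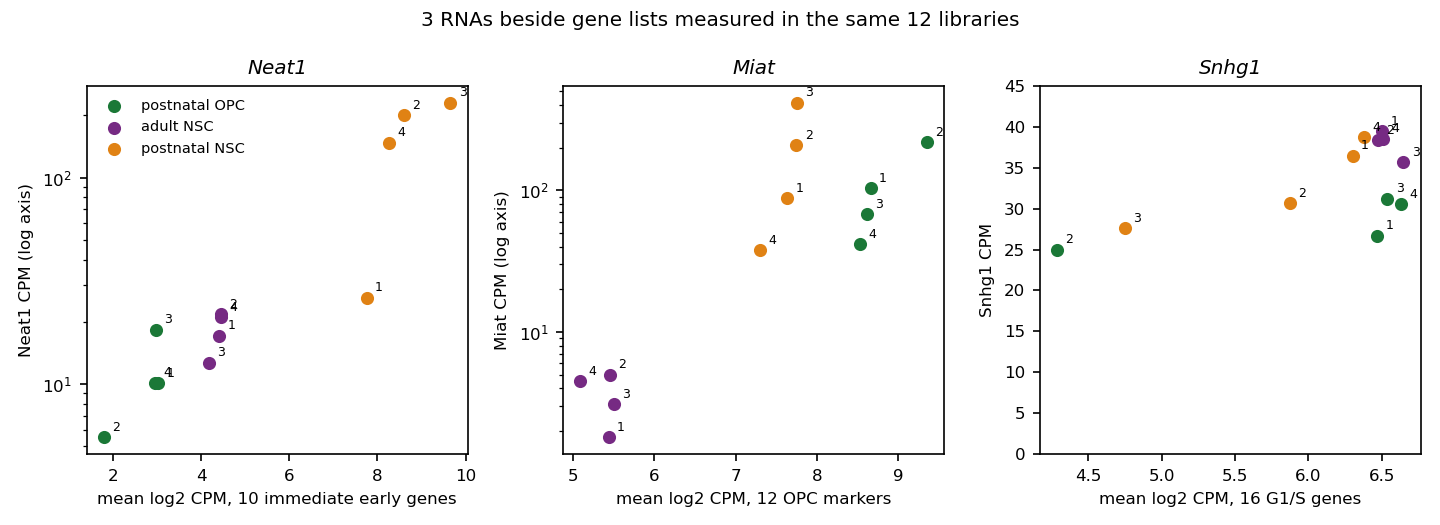
Points are the 12 libraries (number: replicate), with the level of an RNA in CPM (y axis, logarithmic for Neat1 and Miat, linear for Snhg1) against the mean log2 CPM of a gene list (x axis: immediate early genes for Neat1, OPC markers for Miat, G1/S genes for Snhg1). Postnatal NSC 3 is highest for Neat1 (230.3 CPM) and for immediate early genes (9.66), and adult NSC are lowest for Miat and for OPC markers.

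Genes for paraspeckle proteins, which assemble on Neat1, were followed beside it. Of 20 tested, 10 were higher in OPC than in postnatal NSC and 1 was lower, with a median log2 fold change of 0.28. Hnrnpr rose by 0.81 ± 0.06 (274 CPM in OPC against 156 CPM; edgeR QL adjusted p = 3.84e-06) and Rbmx by 0.67 ± 0.10, both genes of RNA-binding proteins, while Dazap1 fell by 0.29 ± 0.09. In adult against postnatal NSC 8 were higher and 3 lower (median 0.10), led by Tardbp, which encodes TDP-43 (0.61 ± 0.11), and by Zc3h6 (-0.92 ± 0.18). OPC against adult NSC gave 10 higher and 3 lower (median 0.14). In this order 55%, 55% and 65% of the list were called, against 45.1%, 53.1% and 51% of all genes.

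Miat separated adult NSC from both postnatal groups. It was at 103, 219, 68.2 and 41.5 CPM in postnatal OPC 1 to 4, at 1.80, 4.99, 3.10 and 4.50 CPM in adult NSC 1 to 4, and at 87.6, 208, 415 and 37.6 CPM in postnatal NSC 1 to 4. No adult library came near any postnatal one, while within each postnatal group the levels spread widely and the groups overlapped. Groups failed to overlap for 56.6% of all genes in OPC against adult NSC.

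Adult NSC had 51.9-fold less Miat than postnatal NSC (log2 fold change -5.70 ± 0.81, edgeR QL adjusted p = 0.000177). In OPC it was 30.0-fold higher than in adult NSC (4.91 ± 0.79, edgeR QL adjusted p = 0.00028). Without postnatal NSC 3 the first value was -4.95 ± 0.69, and with Y-linked genes as a covariate it was also -4.95. Without postnatal OPC 2 the second value was 4.31 ± 0.73.

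OPC and postnatal NSC did not differ past the threshold in Miat (-0.79 ± 0.64, edgeR QL adjusted p = 0.334). That value ranged from -1.42 without postnatal OPC 2 to -0.04 without postnatal NSC 3, so that its size rests on these libraries, and it was 0.18 with Y-linked genes as a covariate. The libraries left out are those with low G1/S genes, and each had the highest Miat of its group.

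OPC markers moved with Miat in both comparisons with adult NSC. Of 12 markers, 12 were higher in OPC than in adult NSC and 9 were lower in adult than in postnatal NSC, with none in the opposite direction, and the median log2 fold changes were 2.85 and -1.43. In OPC against postnatal NSC they did not move together. There 8 of the 12 were higher and none lower (median 1.09), while Miat did not pass (-0.79 ± 0.64). Pdgfra, the receptor gene for PDGF-AA, averaged 1433 CPM in postnatal OPC, 12.2 CPM in adult NSC and 230 CPM in postnatal NSC. Within the postnatal groups, postnatal OPC 2 was highest for Miat, for Pdgfra (2496 CPM) and for the OPC transcription factor gene Sox10 (382 CPM). In postnatal NSC, replicate 4 was lowest for Miat, Pdgfra (155 CPM) and Sox10 (58.4 CPM). Sox10 kept the order of Miat in all of postnatal NSC, with its highest level in replicate 3 (204 CPM). In postnatal OPC Sox10 was lowest in replicate 4 (91.1 CPM), as Miat was. Replicates 1 and 3 (134 and 156 CPM) stood in the reverse order of Miat. Pdgfra did not keep the order in other libraries. Miat was highest in postnatal NSC 3 but Pdgfra in postnatal NSC 2 (284 CPM). Miat was lowest in postnatal OPC 4 but Pdgfra in postnatal OPC 1 (1032 CPM). Of all genes, 26.3% were higher in OPC than in adult NSC and 27.9% lower in adult than in postnatal NSC. In OPC against postnatal NSC 22.4% of all genes were higher. The part of the OPC markers in the result was not tested.

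Grtp1 (r = 0.991), the carboxypeptidase gene Agbl5 (0.989) and the semaphorin gene Sema4g (0.989) had the patterns most like Miat. They kept r of 0.943, 0.931 and 0.931 after the group means were taken off. Miat shares 24.3% of its exon bases with an antisense gene, Gm26953, which held 13 counts in all 12 libraries.

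Of 6 genes for proteins reported to bind Miat or Rmst, 4 were higher in OPC than in postnatal NSC and none lower (median log2 fold change 0.64). The RNA-binding protein gene Qk, needed for myelination, rose by 0.87 ± 0.09 (1575 CPM in OPC against 859 CPM; edgeR QL adjusted p = 1.51e-05). In adult against postnatal NSC 3 were higher and 2 lower (median 0.20). Celf3, a neuronal splicing factor gene, fell by 1.41 ± 0.29 there and Sf1, which encodes the branch point binding protein, by 0.31 ± 0.07. OPC against adult NSC gave 3 higher and none lower (median 0.36). In this order 66.7%, 83.3% and 50% of the 6 were called, against 45.1%, 53.1% and 51% of all genes.

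Sox2ot, in whose intron the stem cell factor gene Sox2 lies, was higher in OPC and in adult NSC than in postnatal NSC. It was at 85.9, 78.7, 48.2 and 71.6 CPM in postnatal OPC 1 to 4, at 92.1, 87.5, 74.0 and 87.3 CPM in adult NSC 1 to 4, and at 43.4, 52.7, 51.8 and 44.4 CPM in postnatal NSC 1 to 4. All adult libraries stood above all postnatal NSC libraries, whereas postnatal OPC 3 lay within the postnatal NSC range. Adult and postnatal NSC failed to overlap for 53.2% of all genes. Sox2ot spans 34104270 to 34682619 on the plus strand of chromosome 3 and shares no exon base with Sox2.

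Sox2ot rose 1.48-fold in OPC (log2 fold change 0.57 ± 0.15, edgeR QL adjusted p = 0.0093) and 1.77-fold in adult NSC (0.83 ± 0.15, edgeR QL adjusted p = 0.000896). OPC against adult NSC did not pass (-0.26 ± 0.15, edgeR QL adjusted p = 0.172). Sox2 itself averaged 334 ± 62.5 CPM in postnatal OPC, 213 ± 9.95 CPM in adult NSC and 201 ± 42.7 CPM in postnatal NSC (SD, n = 4 each). It was higher in OPC than in postnatal NSC (0.73 ± 0.16, edgeR QL adjusted p = 0.00268), and adult against postnatal NSC did not pass (0.08 ± 0.16).

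The ratio of Sox2ot to Sox2 CPM was 0.169 to 0.261 in postnatal OPC, 0.338 to 0.442 in adult NSC, and in postnatal NSC 0.211 to 0.294. The adult range lay above both others, which overlapped. Bod1l, Igip and Mga had the patterns most like Sox2ot (r = 0.945, 0.944 and 0.93). After the group means were taken off, these values were 0.797, 0.839 and 0.733.

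Pantr1 was higher in OPC than in either NSC group, and in postnatal NSC it spread least of the 8 tested RNAs. It was at 85.6, 108, 99.999 and 106 CPM in postnatal OPC 1 to 4, at 59.6, 54.3, 60.5 and 49.1 CPM in adult NSC 1 to 4, and at 55.2, 54.6, 55.9 and 56.7 CPM in postnatal NSC 1 to 4. All 4 OPC libraries stood above all 8 NSC libraries, and the NSC groups overlapped. OPC failed to overlap with postnatal NSC for 34.9% of all genes and with adult NSC for 56.6%. Pantr1 rose 1.80-fold against postnatal NSC (0.85 ± 0.09, edgeR QL adjusted p = 2.41e-05) and 1.79-fold against adult NSC (0.84 ± 0.09, edgeR QL adjusted p = 1.36e-05). Adult and postnatal NSC did not differ past the threshold (0.01 ± 0.09, edgeR QL adjusted p = 0.948).

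Pantr1 (chromosome 1, 42590782 to 42694842, minus strand) starts 926 bases from Pou3f3, a POU transcription factor gene of the developing cortex, on the opposite strand. Pou3f3 averaged 310 ± 24.0 CPM in postnatal OPC, 241 ± 7.34 CPM in adult NSC and 253 ± 26.1 CPM in postnatal NSC (SD, n = 4 each). It was higher in OPC too, by 0.29 ± 0.09 against postnatal NSC (edgeR QL adjusted p = 0.015) and by 0.36 ± 0.09 against adult NSC (edgeR QL adjusted p = 0.00403). Lrrn3, Panx1 and Lrrtm3 were most like Pantr1 (r = 0.985, 0.973 and 0.972), with r of 0.757, 0.602 and 0.501 after the group means were taken off.

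Dlx6os1, the antisense transcript of the interneuron gene Dlx6, was close to the limit of detection. It was at 0.63, 0.856, 0.288 and 0.192 CPM in postnatal OPC 1 to 4, at 0.218, 0.156, 0.338 and 0.247 CPM in adult NSC 1 to 4, and at 2.06, 2.28, 3.61 and 0.224 CPM in postnatal NSC 1 to 4. These rest on 43, 17 and 366 counts in the 3 groups, in that order. In postnatal NSC, 3 of 4 libraries stood above all others and replicate 4, with 9 counts, lay among them.

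Dlx6os1 fell 4.05-fold in OPC against postnatal NSC (log2 fold change -2.02 ± 0.66, edgeR QL adjusted p = 0.0245) and was also lower in adult NSC (-3.08 ± 0.74, edgeR QL adjusted p = 0.00425). The adult value rests on 3 to 6 counts per library, so that its size is loosely set. Dlx6os1 passed the low-count filter through libraries of the postnatal groups, and it was not kept in a fit of adult with postnatal NSC alone or where 1 CPM was required in 4 libraries. The call in OPC did not hold without postnatal OPC 3 (-1.84), postnatal OPC 4 (-1.75) or postnatal NSC 3 (-1.60), in a fit of these groups alone (-2.02 ± 0.75), or with Y-linked genes as a covariate (-1.42 ± 0.76, edgeR QL adjusted p = 0.163). OPC against adult NSC did not pass (1.06 ± 0.81, edgeR QL adjusted p = 0.294). A second identifier with the same symbol, a small RNA at the same locus, had no counts.

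Its neighbours Dlx6 and Dlx5 were too low to be tested, at 0.0484 and 0.0855 CPM in postnatal OPC, 0.081 and 0.0686 CPM in adult NSC, and 0.288 and 0.578 CPM in postnatal NSC. Dlx1 and Dlx2, paralogs on another chromosome, were higher and could be tested. Dlx1 averaged 4.42 ± 1.85 CPM in postnatal OPC, 3.06 ± 0.712 CPM in adult NSC and 22.7 ± 15.7 CPM in postnatal NSC (SD, n = 4 each). It fell by 2.36 ± 0.47 in OPC and by 2.89 ± 0.49 in adult NSC, each against postnatal NSC (edgeR QL adjusted p = 0.00155 and 0.000495).

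Of 15 neuroblast and interneuron markers 12 were tested. In OPC against postnatal NSC 4 were higher, led by Dcx, which encodes the neuroblast protein doublecortin (2.71 ± 0.52), and 6 lower, among them Dlx1. In adult against postnatal NSC 7 were lower and none higher. Their summed level was 251 to 437 CPM in postnatal OPC, 98.1 to 116 CPM in adult NSC and 149 to 294 CPM in postnatal NSC. Dlx5 and Dlx6 had no counts in at least 1 library of postnatal OPC and of adult NSC, and Sp8 in at least 1 of adult NSC. Of all genes, 22.4% were higher and 22.7% lower in OPC, and 25.2% higher and 27.9% lower in adult NSC, each against postnatal NSC. The part of these markers in the result was not tested. Adat2, Slc9a8 and Man1c1 were most like Dlx6os1 (r = 0.952, 0.94 and 0.938).

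Rmst was barely detected. It had 0, 2, 1 and 0 counts in postnatal OPC 1 to 4, 1, 5, 2 and 0 counts in adult NSC 1 to 4, and 4, 4, 6 and 6 counts in postnatal NSC 1 to 4. The 3 libraries without a count allow up to 0.146, 0.143 and 0.179 CPM of the library total, taken as 3 counts (postnatal OPC 1, postnatal OPC 4 and adult NSC 4), and exact Clopper-Pearson 95% intervals reach 0.179, 0.176 and 0.220 CPM there. These limits cover counting error only. Fitted without the low-count filter, Rmst passed in none of the 3 comparisons (edgeR QL adjusted p = 0.259, 0.963 and 0.344), and a difference was not detectable at this depth. Rmst shares 26.3% of its exon bases with an antisense gene, Gm26700, which was not analysed here. Of the 50-base stretches of Rmst, 30.0% occur in some other gene, but only 0.15% in genes that do not overlap it. Since the strand setting of the counting is not given, how reads from the shared bases were assigned is not known. Its nearest protein-coding gene, Nedd1, lies 519576 bases away.

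**Figure D4:**
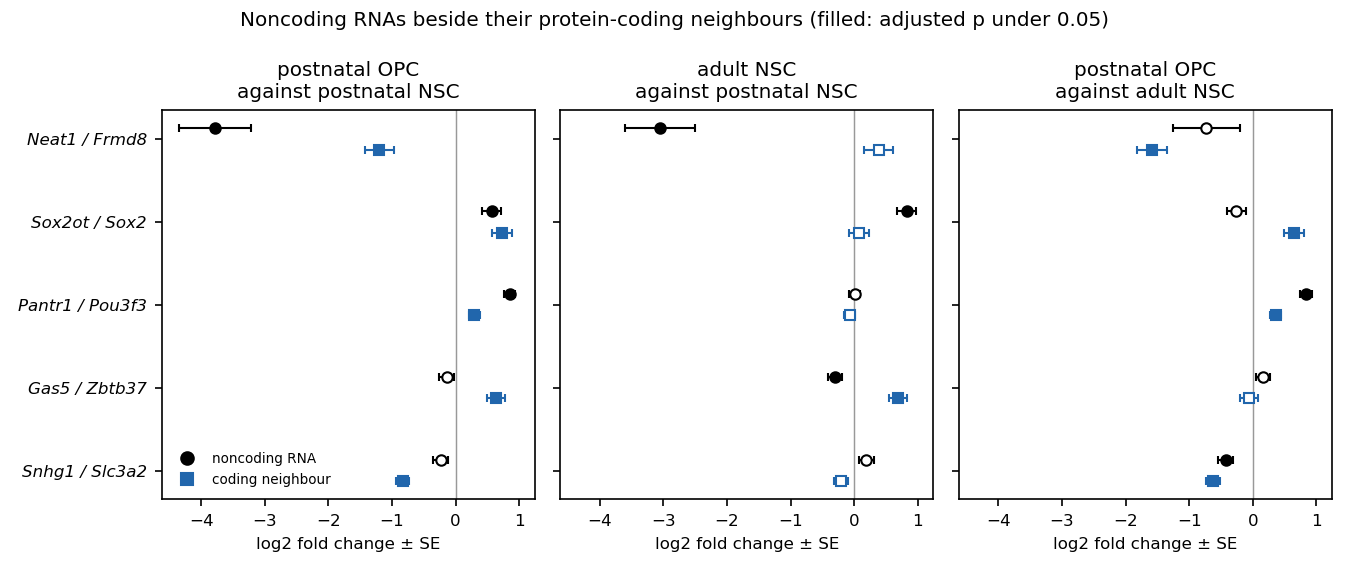
Log2 fold changes with their SE (x axis) are shown for 5 tested noncoding RNAs (circles) and the protein-coding gene that overlaps or lies nearest to each (squares), and filled symbols passed the test. Pantr1 and Pou3f3 are both filled above 0 in OPC against either NSC group, and Frmd8, next to Neat1, is filled at -1.20 in OPC and open at 0.38 in adult NSC against postnatal NSC.

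The coding gene next to Neat1 showed another pattern. Frmd8, 4224 bases from Neat1, averaged 66.2 ± 16.4 CPM in postnatal OPC, 198 ± 12.3 CPM in adult NSC and 152 ± 46.2 CPM in postnatal NSC (SD, n = 4 each). It was lower in OPC than in postnatal NSC (-1.20 ± 0.23, edgeR QL adjusted p = 0.00122), and adult against postnatal NSC did not pass (0.38 ± 0.23). Whether a neighbour's change differed from that of its RNA was not tested.

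The snoRNA host genes differed little between groups. Gas5 was at 105, 133, 94.5 and 105 CPM in postnatal OPC 1 to 4, at 97.6, 93.0, 107 and 93.5 CPM in adult NSC 1 to 4, and at 135, 128, 103 and 116 CPM in postnatal NSC 1 to 4, so that all 3 groups overlapped. Gas5 fell by 0.30 ± 0.11 in adult against postnatal NSC (edgeR QL adjusted p = 0.0421), a 1.23-fold difference that lost its call without postnatal OPC 4, adult NSC 1, 2 or 4, or postnatal NSC 1 or 2 (-0.31 to -0.27). OPC did not differ past the threshold from postnatal NSC (-0.14 ± 0.11, edgeR QL adjusted p = 0.334) or from adult NSC (0.16 ± 0.11, edgeR QL adjusted p = 0.264). Without postnatal OPC 2 the value against postnatal NSC was -0.28 ± 0.10 and passed (adjusted p = 0.0405 in the same test).

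Snhg1 was at 26.7, 24.99, 31.2 and 30.6 CPM in postnatal OPC 1 to 4, at 39.5, 38.4, 35.7 and 38.6 CPM in adult NSC 1 to 4, and at 36.5, 30.7, 27.6 and 38.7 CPM in postnatal NSC 1 to 4. Every OPC library stood below every adult library, and postnatal NSC spanned both. Groups failed to overlap for 56.6% of all genes in OPC against adult NSC. Snhg1 fell 1.34-fold in OPC against adult NSC (-0.42 ± 0.12, edgeR QL adjusted p = 0.00965). It did not pass in OPC against postnatal NSC (-0.23 ± 0.12, edgeR QL adjusted p = 0.119), where it passed without postnatal NSC 3 (-0.32 ± 0.11). Adult against postnatal NSC did not pass either (0.19 ± 0.12, edgeR QL adjusted p = 0.188). In each postnatal group the library with low G1/S genes had the lowest Snhg1, and the part of these genes was not tested.

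Snhg1 ran opposite to Miat in postnatal NSC, where the libraries stood in reverse order. In postnatal OPC the library highest for Miat was lowest for Snhg1, whereas in adult NSC the lowest Snhg1 (replicate 3) stood at a middle level of Miat. Over the 12 libraries their r was -0.78, and it was -0.90 after the group means were taken off. The libraries with low G1/S genes held the highest Miat and the lowest Snhg1 of both postnatal groups. For Snhg1 and Dlx6os1 r was -0.83 after the group means were taken off, and for Miat and Dlx6os1 0.82. Rapgef4, Ndufaf6 and Lrrc59 were most like Snhg1 (r = 0.979, 0.975 and 0.967), and Chchd6, Sgsm3 and Eif3f, a subunit of a translation initiation factor, most like Gas5 (r = 0.894, 0.878 and 0.862).

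Gas5 (chromosome 1, 161034422 to 161038539, plus strand) overlaps 10 annotated snoRNA genes and Snhg1 (chromosome 19, 8723475 to 8726443, plus strand) 8, and none of these 18 held a count in any library. All their bases lie within annotated exons of the host, and how reads from shared bases were assigned is not known. As the libraries were also made from polyadenylated RNA, the lack of counts does not show that the snoRNAs were absent. The coding gene Slc3a2, a subunit of amino acid transporters, starts 106 bases from Snhg1 on the opposite strand. It averaged 78.5 ± 10.2 CPM in postnatal OPC, 121 ± 2.41 CPM in adult NSC and 140 ± 18.1 CPM in postnatal NSC (SD, n = 4 each). It fell by 0.83 ± 0.11 in OPC against postnatal NSC (edgeR QL adjusted p = 8.84e-05) and by 0.62 ± 0.11 against adult NSC. Zbtb37, which overlaps Gas5 on the opposite strand without shared exon bases, was higher in OPC (0.63 ± 0.14) and in adult NSC (0.69 ± 0.14) than in postnatal NSC.

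Of 18 other snoRNA host genes, 14 were tested. None was higher and 5 were lower in OPC against postnatal NSC (median log2 fold change -0.20), among them Snhg17 at 23.0 CPM in OPC, against 37.0 CPM in postnatal NSC (-0.69 ± 0.12, edgeR QL adjusted p = 0.000618). In adult against postnatal NSC 2 were higher and 5 lower (median -0.23). Snhg6 was the largest rise, at 37.7 ± 0.863 CPM in adult NSC, against 15.5 ± 3.20 CPM in postnatal NSC (1.29 ± 0.14, edgeR QL adjusted p = 2.6e-05). OPC against adult NSC gave 3 higher and 4 lower (median 0.03). In this order 35.7%, 50% and 50% of the 14 were called, against 45.1%, 53.1% and 51% of all genes.

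Genes for proteins that act with snoRNAs were followed beside their hosts. Of 17 snoRNP genes, 9 were higher and none lower in adult against postnatal NSC (median 0.47), with Dkc1, which encodes dyskerin, at 105 CPM in adult, against 55.1 CPM in postnatal NSC (0.93 ± 0.26, edgeR QL adjusted p = 0.0101). In OPC against adult NSC 10 were lower and none higher (median -0.53), and in OPC against postnatal NSC 2 were higher and 2 lower (median 0.03). Of all genes, 53.1%, 51% and 45.1% were called in either direction in these comparisons, and whether the list differed between them was not tested. Its summed level was lowest in the libraries with low G1/S genes, at 1282 CPM in postnatal OPC 2 and 1082 CPM in postnatal NSC 3, and the part of these genes was not tested. Nonsense-mediated decay factors, which degrade translated host transcripts, numbered 14. Of these 4 were higher and 1 lower in OPC against postnatal NSC, 5 and 4 in adult against postnatal NSC, and 4 and 2 in OPC against adult NSC (medians 0.13, 0.07 and 0.02). In this order 35.7%, 64.3% and 42.9% of the 14 were called, against 45.1%, 53.1% and 51% of all genes.

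Of 18 translation factor genes counted to the TOP class, 2 were higher and 5 lower in OPC against postnatal NSC, 5 and 5 in adult against postnatal NSC, and 2 and 6 in OPC against adult NSC (medians -0.17, -0.06 and -0.12). In this order 38.9%, 55.6% and 44.4% of the 18 were called, against 45.1%, 53.1% and 51% of all genes. Fau, which encodes a ribosomal protein fused to a ubiquitin-like one, fell by 0.57 ± 0.10 in OPC and by 0.48 ± 0.10 in adult NSC, each against postnatal NSC. Npm1, the nucleolar protein nucleophosmin, rose by 0.91 ± 0.18 in adult against postnatal NSC (962 CPM against 513 CPM; edgeR QL adjusted p = 0.00143).

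A list of 50 other well-known long noncoding RNAs had 28 tested genes. In OPC against postnatal NSC 5 were higher and 4 lower (median -0.16). Tug1 was at 206 ± 23.3 CPM in OPC, against 108 ± 12.1 CPM in postnatal NSC (0.93 ± 0.10, edgeR QL adjusted p = 2.76e-05), and Mir124-2hg, a host gene of the neuronal miR-124, rose by 1.77 ± 0.18. Pantr2, which like Pantr1 lies near Pou3f3, rose by 1.25 ± 0.28. The imprinted RNA H19 fell by 2.40 ± 0.60.

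In adult against postnatal NSC 7 of the 28 were higher and 11 lower (median -0.47). The imprinted RNA Meg3 was at 0.156 ± 0.0641 CPM in adult NSC, against 5.95 ± 2.94 CPM in postnatal NSC (-5.23 ± 0.55, edgeR QL adjusted p = 2.58e-05). The adult value rests on 2, 3, 2 and 4 counts in adult NSC 1 to 4, so that the size of the fall is loosely set. Six3os1, antisense to the forebrain gene Six3, rose by 0.88 ± 0.22 in adult NSC, and Firre, an X-linked nuclear RNA, fell by 1.87 ± 0.32. OPC against adult NSC gave 11 higher and 6 lower (median 0.36), with Six3os1 lower by 1.70 ± 0.22. From the first to the last of these comparisons 32.1%, 64.3% and 60.7% of the 28 were called. The shares were 45.1%, 53.1% and 51% of all genes, and 29.1%, 43.8% and 51.4% of long noncoding genes.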

How the data were processed

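Per the labels' protocols, libraries came from a stranded poly(A) kit. The table holds raw read counts per gene as deposited by the authors, with no normalization; FastQC, STAR and featureCounts 1.22.2 and the build GRCm38 are named in the submitters' processing notes, and settings for strand and multiply mapped reads are not given in the sources used here. Of 55401 identifiers 55141 matched GENCODE M21.

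Tools were edgeR 4.0.16 and DESeq2 1.42.0 under R 4.3.3, with Python 3.11.15 for descriptions. filterByExpr (minimum count 10, total 15) chose the genes, which were scaled by TMM and fitted in all 12 libraries with 1 term per group. Contrasts were tested with edgeR's quasi-likelihood test (two-sided), adjusted by Benjamini-Hochberg over 16135 genes and called at 0.05. Replicate numbers do not mark shared litters in the labels and were not used as a block. Intervals and floors (3 counts) cover counting error only.

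The 9 RNAs and all gene lists were chosen with earlier results of these data known. Named besides the 9 are, per list and comparison, up to 4 called genes in each direction with the largest changes and a mean of 5 CPM or more in 1 of the groups, the coding genes that overlap or lie nearest (1 is not reported here), the 3 genes most correlated with each RNA, and fixed marker genes. Alternatives were RLE factors, library totals, DESeq2, other filters, the compared groups alone, a replicate block, each library left out, thinned counts, both libraries with low G1/S genes left out, a Y-linked covariate and robust shrinkage. Postnatal NSC were sequenced most deeply, and with counts thinned to the smallest library every call among the 9 was kept.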

Additional observations from a re-analysis of the deposited data

How the results depend on the processing

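In 23 alternative analyses per comparison (other scaling, filters and tests, the compared groups alone, thinned counts, each library left out, both low G1/S libraries left out, a Y-linked covariate, a replicate block) no RNA that passed the test changed direction. Miat in OPC against postnatal NSC and Pantr1 in adult against postnatal NSC, which did not pass, lay on either side of 0. Dlx6os1 was not kept by a filter of 1 CPM in 4 libraries, nor in the fits of adult NSC with 1 other group alone. RNAs lower in OPC against postnatal NSC numbered 3, but 5 without both low G1/S libraries (Gas5 at -0.32 and Snhg1 at -0.26 were added), 1 with the Y-linked covariate, and 2 to 4 with 1 library left out. Those lower in OPC against adult NSC numbered 2, and 1 to 2 with 1 library left out. The other counts of called RNAs and of all genes stayed within 1.5 times, and the causes were not tested.

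Samples with equal replicate numbers did not deviate together (correlations -0.363 to 0.325), so the numbers were not taken as pairs. With a replicate block, called RNAs numbered 2 higher and 3 lower in OPC against postnatal NSC, 1 and 3 in adult against postnatal NSC, and 2 and 2 in OPC against adult NSC, and the call of Gas5 in adult NSC was lost (-0.29, edgeR adjusted p = 0.0606). With library totals as the only scaling the median of all genes was -0.12 in adult against postnatal NSC, against -0.03 with TMM. Rmst, with 0 to 6 counts per library, was too low for a difference to be detectable.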
